A study of Mus musculus with 21 samples.

Results

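The genes described here are Pax1, Pax3, Pax6, Pax7, Pax8 and Pax9, taken by their symbols from both count tables of the series (6 of 24594 genes listed) and followed through all 7 groups of libraries. Pax genes encode transcription factors that bind DNA through a paired domain. Pax1 and Pax9 form a subfamily without a homeodomain, Pax3 and Pax7 carry a complete one, Pax8 belongs with Pax2 and Pax5, which keep a partial one, and Pax6 carries a complete one but lacks the octapeptide of the other subfamilies. In the embryonic pharynx, Pax1 and Pax9 are known from the endoderm of the pharyngeal pouches and Pax9 also from arch mesenchyme, Pax8 from the thyroid primordium, Pax3 from neural crest, melanoblasts and muscle progenitors, Pax7 from neural crest and muscle progenitors, and Pax6 from eye, brain and pancreas.

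Bulk RNA sequencing of mouse embryos gave 2 series of libraries. The genotype series held pharyngeal arch 2 (PA2) and pharyngeal arch 3 (PA3), dissected at E10.5 from WT embryos and from embryos homozygous for HIRE1del, a CRISPR deletion of a distant regulatory region of the Hoxa cluster (genotype label HIRE1del/del, titled delta-E3). In the stage series, neural crest cells expressing RFP from Wnt1::Cre;ROSARFP were isolated by FACS from E10.5 PA2 and, at E12.5 and E14.5, from the pinna (the visible outer ear, which forms largely from PA2). The Wnt1 promoter drives Cre in premigratory neural crest, and all these embryos were WT for HIRE1. Each of the 4 genotype groups and 3 stage groups had 3 libraries, made from mice of mixed C57Bl/6J;CD1 background. The methods state that embryos of different sexes were pooled, but the Y-linked transcripts of 1 library, given below, were near 0. The labels name cranial neural crest cells for every library, but sorting is described only for the reporter embryos. The defining markers of other cells bear on this: the epithelial cadherin Cdh1 was at 46.7 ± 1.45 CPM in WT PA2 of the genotype series against 0.279 ± 0.0724 CPM in sorted PA2 cells (SD, n = 3 each), and the endothelial receptor Kdr at 96.2 ± 0.972 against 3.26 ± 0.364 CPM. Libraries of the genotype series are therefore called whole arches here. Levels are CPM (counts scaled to library size with TMM factors), and were computed from the deposited counts.

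Depth was 25.8 to 32.2 M counts per whole-arch library and 25.8 to 49.1 M per sorted library. A floor of 3 counts, the limit that a count of 0 allows, was worth 0.0612 to 0.116 CPM in a single library. The deletion was visible in the Hoxa2 counts of every library: in PA2 the HIRE1del libraries had 4.75 to 7.09 CPM and the WT libraries 73.4 to 84.2 CPM, and in PA3 22.1 to 25.6 against 56.1 to 65.1 CPM. Replicate 1 of WT PA2 and replicate 1 of WT PA3 stood apart from the other libraries in Y-linked transcripts (0.271 and 6.62 CPM, against 117 to 303 CPM elsewhere), and the WT differences between arches are also given without both. Nothing in the labels says that replicates came from separate litters, so p-values measure the spread between these libraries. In whole arches, fewer cells of a type and less RNA per cell cannot be told apart.

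Pax9 was the member that changed with the deletion, and the change was called in PA2. Its levels in WT PA2 were 21.3, 18.7 and 17.6 CPM and in HIRE1del PA2 8.49, 5.69 and 9.53 CPM. Each HIRE1del library was below every WT library. The mean was 7.91 ± 1.99 CPM in HIRE1del and 19.2 ± 1.93 CPM in WT (SD, n = 3 each), which is 2.42-fold lower (log2 fold change -1.28, SE 0.156, Benjamini-Hochberg adjusted p = 0.00112 by the quasi-likelihood test of edgeR). It was the 1 called of the 5 members that could be tested, beside 63 of all 14383 genes (0.438%). Leaving out each library in turn gave log2 fold changes of -1.43 to -1.09.

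In PA3 the same deletion left Pax9 within the spread of the replicates. Levels were 50.8, 39.8 and 40.1 CPM in WT PA3 and 38.5, 42.7 and 40.7 CPM in HIRE1del PA3, so that the groups overlapped, with the first WT library above all others. The log2 fold change was -0.10 (SE 0.14, edgeR adjusted p = 0.863). Without that WT library it was 0.03. No member was called in PA3 by edgeR, DESeq2 or limma-voom (0 of 5, and 0 of 5 at an unadjusted p under 0.05, against 0.216% of all genes). Hoxa2, by contrast, was lower in HIRE1del in every PA3 library.

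Whether the effect of the deletion on Pax9 differed between the arches was tested as the interaction between the genotype and the arch. The difference of the log2 fold changes, PA2 minus PA3, was -1.18 (SE 0.21), with an unadjusted p of 7.94e-05 and an edgeR adjusted p of 0.143, and so was not called over all genes. In this test 0 of 5 members and 0.0487% of all genes were called, and 1 of 5 members, Pax9, had an unadjusted p under 0.05. PA2 and PA3 libraries of the same genotype and number deviated together, and with a term for each such pair the difference was -1.19 (SE 0.167) with an adjusted p of 0.0156 by edgeR. DESeq2 also called it, with a difference of -1.17 and an adjusted p of 3.6e-05, whereas limma-voom did not. Over all genes, DESeq2 called more interactions than edgeR did. The interactions of the other 4 tested members lay between -0.53 (Pax3) and 0.32 (Pax7) on the log2 scale, with edgeR adjusted p of 0.96 to 0.995.

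The other members were not called with the deletion in either arch. Pax1 was at 4.90 ± 1.11 CPM in HIRE1del and 5.83 ± 1.16 CPM in WT PA2 (log2 fold change -0.25, SE 0.254, edgeR adjusted p = 0.85) and at 21.3 ± 5.6 against 25.7 ± 6.43 CPM in PA3 (-0.27, SE 0.219, adjusted p = 0.734; SD, n = 3 each). Pax8 had log2 fold changes of -0.23 in PA2 and -0.14 in PA3, Pax7 of 0.31 and -0.01, and Pax3 of -0.49 and 0.04, with edgeR adjusted p of 0.886 to 0.998 over these. The Pax3 value in PA2 ranged from -1.26 to -0.07 when single libraries were left out, and was -1.02 without replicate 1 of WT PA2, which held 1 Pax3 count. For these lowly counted genes the standard errors were 0.24 to 0.797 on the log2 scale, against 0.156 for Pax9 in PA2. Pax6, which did not reach 1 CPM in any library, was at 0.374, 0.49 and 0.278 CPM in HIRE1del PA3 and at 0.88, 0.607 and 0.708 CPM in WT PA3. These groups did not overlap, but in a fit without the filter on low counts the log2 fold change was -0.93 (SE 0.46, edgeR adjusted p = 0.656).

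**Figure D1:**
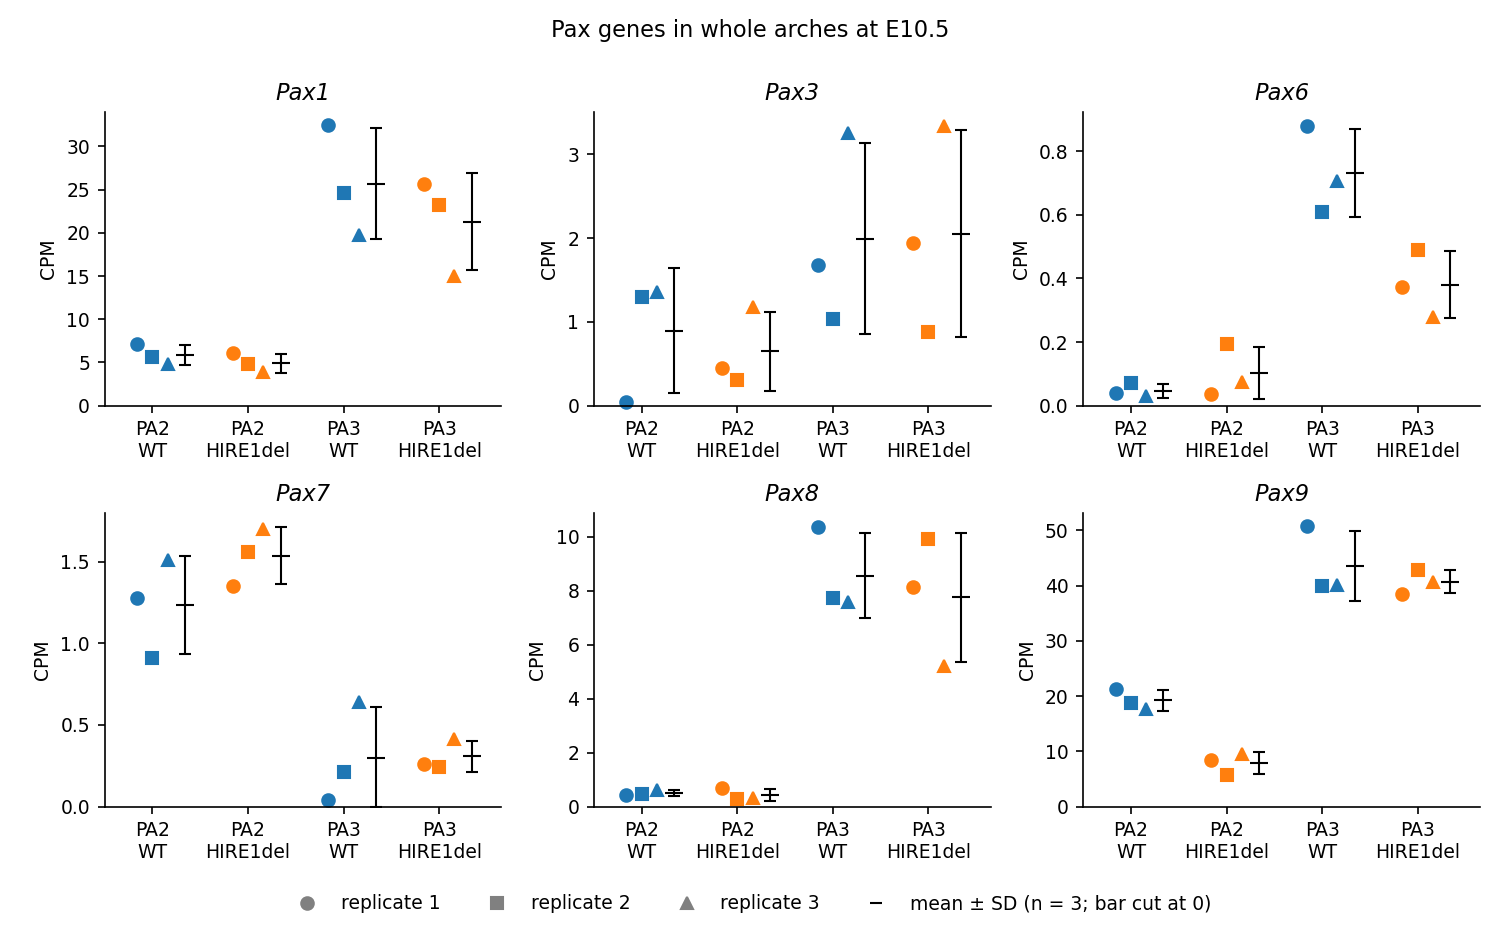
Level of each Pax gene (CPM, linear axes that differ between panels) in the 12 whole-arch libraries at E10.5, by arch and genotype; symbols are replicates 1 to 3, and bars the mean ± SD (n = 3). Pax9 in HIRE1del PA2 (5.69 to 9.53 CPM) lies below WT PA2 (17.6 to 21.3 CPM), Pax1, Pax8 and Pax9 are higher in PA3 than in PA2, and Pax7 is lower in PA3.

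Of 45 genes chosen as partners, targets or tissue companions of the Pax genes (cofactors such as Eya and Dach proteins, Meox, Tbx1, Foxi3, Gcm2, Msx, Bmp4, Groucho co-repressors and others), 41 could be tested in the genotype series. In PA2, 1 of the 41 was called with the deletion, and it was lower: Meox1, a homeobox gene of mesenchyme and somites, at 3.68 ± 0.95 CPM in HIRE1del and 10.2 ± 1.21 CPM in WT (SD, n = 3 each; log2 difference -1.47, SE 0.162, edgeR adjusted p = 0.000537). Meox1 was also the 1 called of 41 in PA3, at 15.2 ± 0.857 against 26.1 ± 2.56 CPM (-0.78, SE 0.142, adjusted p = 0.0482). The median log2 fold change of the list was 0.01 in PA2 and -0.12 in PA3, beside -0.01 and -0.00 over all genes tested (-0.00829 and -0.00187). Meox1 was likewise the gene whose profile over the 12 libraries was most like that of Pax9, measured as the root mean square difference of log2(CPM + 0.5) after centring (0.267, among 12730 genes), followed by Syt13 (0.272) and Hoxb3os (0.333). No gene of the 11 lists of cell type markers was called with the deletion in either arch. The 8 markers of pharyngeal endoderm summed to 101 to 111 CPM in HIRE1del PA2 and 107 to 126 CPM in WT PA2, and the 10 markers of crest mesenchyme to 1285 to 1476 and 1220 to 1385 CPM, both overlapping. The sums of 3 other lists did not overlap and were lower in HIRE1del PA2: neurons and ganglia (41.6 to 50.4 against 56.6 to 63.4 CPM, with all 7 tested genes at values below 0 and a median log2 fold change of -0.49), Schwann cells and glia (35.5 to 44.9 against 47.7 to 53.8 CPM) and neural tube (168 to 178 against 179 to 193 CPM). The part of these cells in the fall of Pax9 was not tested.

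It was also asked how the Pax genes differ between the arches. Pax1, Pax8 and Pax9 were higher in PA3 than in PA2 and Pax7 was lower, in WT and in HIRE1del alike, while Pax3 was not called. That is 4 of 5 tested members in each genotype, beside 36.5% of all genes in WT and 33.4% in HIRE1del, so that a called difference between the arches is in itself common here. Pax8 and Pax7 entered the test only through the arch in which they were high, so the count of 4 is a description. Without replicate 1 of both WT arches the WT log2 fold changes were 2.10 for Pax1, 3.82 for Pax8, 1.14 for Pax9 and -1.47 for Pax7, all called (edgeR adjusted p of 5.34e-05 to 0.0414), and 0.70 for Pax3, not called. Both comparisons were made in 1 fit of the 12 libraries.

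Pax8, a partner of Nkx2-1 and Foxe1 in thyroid cells, differed most in size. In WT it was counted at 0.426, 0.456 and 0.616 CPM in PA2 and at 10.4, 7.72 and 7.59 CPM in PA3. The groups were far apart, and Pax8 passed the filter only through PA3. The log2 fold change was 4.07 (SE 0.315, edgeR adjusted p = 1.26e-06) in WT and 4.16 (SE 0.328, adjusted p = 1.43e-06) in HIRE1del, where the PA3 libraries had 8.12, 9.93 and 5.21 CPM. Of the 4 thyroid markers, Foxe1 was at 14.9 ± 1.14 CPM in WT PA3 against 6.74 ± 1.08 CPM in WT PA2 (SD, n = 3 each), while Nkx2-1 had no count in PA2 and 0.434 ± 0.419 CPM in WT PA3, and Hhex stayed between 0 and 0.257 CPM in all 12 libraries.

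Pax1, a marker of pharyngeal pouch endoderm and later of the thymus, was at 7.09, 5.61 and 4.8 CPM in WT PA2 and 32.5, 24.7 and 19.8 CPM in WT PA3. Every PA3 library was above every PA2 library. The log2 fold change was 2.14 (SE 0.238, edgeR adjusted p = 2.1e-05) in WT and 2.12 (SE 0.243, adjusted p = 2.77e-05) in HIRE1del. Pax9, its closest relative, was 2.27-fold higher in PA3 in WT (log2 fold change 1.18, SE 0.144, adjusted p = 4.39e-05) and 5.13-fold higher in HIRE1del (2.36, SE 0.156, adjusted p = 3.62e-07). The difference between those arch effects of Pax9 is the interaction given above, seen from the other side.

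Pax7, a gene of muscle progenitors and of some crest derivatives, had the opposite direction. It was at 1.28, 0.912 and 1.51 CPM in WT PA2 and at 0.0383, 0.214 and 0.644 CPM in WT PA3, from 27 counts in all in PA3. The groups did not overlap, and the log2 fold change was -1.98 (SE 0.509, edgeR adjusted p = 0.00847) in WT and -2.30 (SE 0.506, adjusted p = 0.0036) in HIRE1del. Without replicate 3 of WT PA3, the PA3 library with most Pax7, the WT value was -3.21. Pax7 passed the filter only through PA2. Of the muscle progenitor markers, Msc was lower in WT PA3 as well (1.45 ± 0.78 against 5.30 ± 0.745 CPM; SD, n = 3 each, log2 difference -1.85, edgeR adjusted p = 0.000362), as was Myf5 (4.02 ± 1.55 against 6.92 ± 0.53 CPM; -0.78, adjusted p = 0.0179), and the other 5 tested of the 8 were not called. The part of these cells in the Pax7 difference was not tested.

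Pax3 varied most between replicates. It was at 0.0387, 1.3 and 1.35 CPM in WT PA2 and at 1.68, 1.04 and 3.25 CPM in WT PA3, with overlapping groups. The log2 fold change was 1.12 (SE 0.71, edgeR adjusted p = 0.24) in WT and 1.65 (SE 0.75, adjusted p = 0.11) in HIRE1del. With a term for each pair of arches the HIRE1del value was 1.68 (SE 0.532) with an adjusted p of 0.0253, so that only the paired fit called it. Among the muscle progenitor markers, Lbx1, singled out after its values were seen, had no count in replicate 1 of WT PA2, the library with 1 Pax3 count, and 1.02 and 1.2 CPM in replicates 2 and 3. It was highest in replicate 3 in WT PA3 (2.12 CPM) and, little above replicate 1 (1.05 CPM), in HIRE1del PA3 (1.08 CPM), as was Pax3 (3.25 and 3.34 CPM).

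Pax6 was seen at 4 counts in the 3 WT PA2 libraries together and at 62 in those of WT PA3, a ratio of pooled CPM of 15.9 (95% interval 5.89 to 60.1, counting error only). In HIRE1del the counts were 8 and 32, a ratio of 3.77 (1.7 to 9.46). In a fit without the filter on low counts the log2 fold changes were 3.85 (edgeR adjusted p = 0.000169) and 1.85 (adjusted p = 0.0296).

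**Figure D2:**
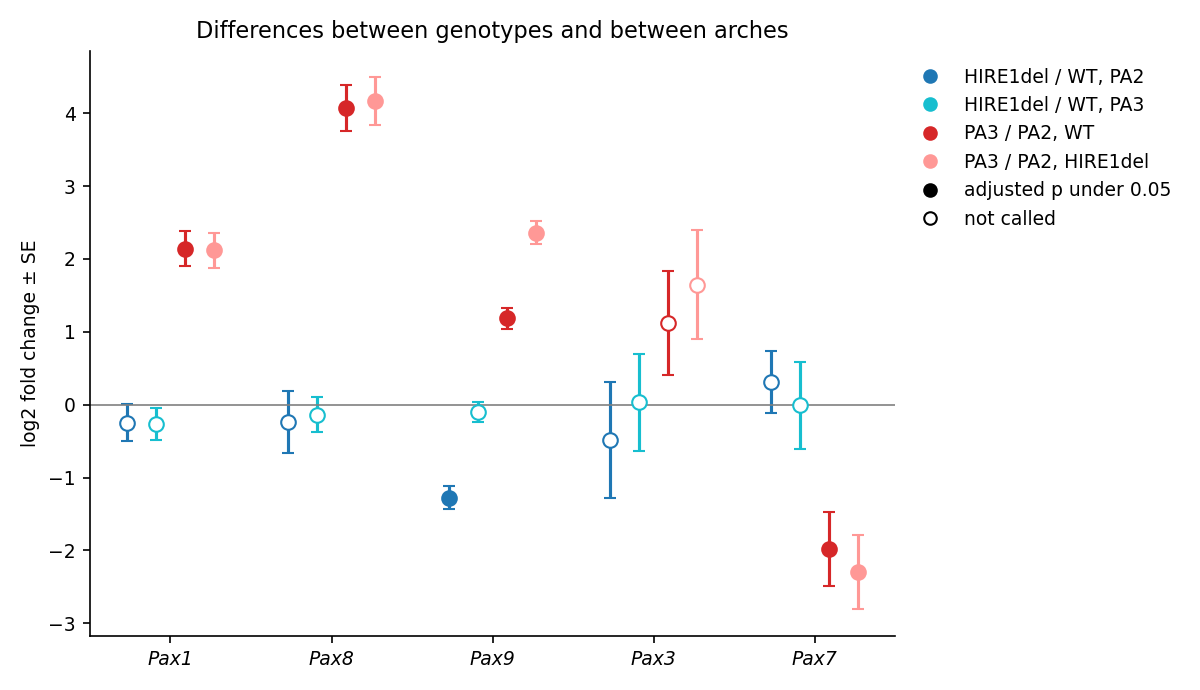
Log2 fold change ± SE of the 5 members tested in the genotype series, for HIRE1del against WT within each arch and for PA3 against PA2 within each genotype; filled points have an edgeR adjusted p under 0.05 over all genes. Pax9 in PA2 (-1.28) is the filled point among the genotype effects, and the arch effects of Pax1 (2.14 and 2.12) and Pax8 (4.07 and 4.16) are close in WT and HIRE1del.

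Markers of several other cell types moved with the arch difference. In WT PA3, 7 of 7 tested markers of neurons and ganglia were higher (median log2 fold change 3.94, with sums of 148 to 199 against 56.6 to 63.4 CPM), as were 4 of 4 of the otic and epibranchial placodes (median 1.61), 4 of 5 of endothelium, 7 of 10 of epithelium (1 lower), 3 of 4 of neural tube and 2 of 5 of Schwann cells and glia (sums of 103 to 138 against 47.7 to 53.8 CPM). Erbb3 made most of that glial sum (means of 99.5 against 38.1 CPM). Over all genes 36.5% were called between the WT arches, so that 2 of 5 is near the common share. In WT, 7 of 8 pharyngeal endoderm markers were higher in PA3, among them the pioneer factor Foxa2 (4.69 ± 0.243 against 1.78 ± 0.138 CPM) and the adhesion molecule Epcam (127 ± 18.7 against 51.7 ± 5.65 CPM; SD, n = 3 each), while the signal Shh was not called (5.58 ± 1.90 against 4.52 ± 0.954 CPM). The median log2 fold change of these 8 was 1.36, beside -0.00 (-0.00065) over all genes. Their sum ranged from 266 to 345 CPM in WT PA3 and 107 to 126 CPM in WT PA2, and from 204 to 300 and 101 to 111 CPM in HIRE1del. Library by library, the PA3 library with the highest sum (345 CPM, WT replicate 1) had the highest Pax1, Pax8 and Pax9, and that with the lowest sum (204 CPM, HIRE1del replicate 3) had the lowest Pax1 (14.9 CPM) and Pax8 (5.21 CPM) of PA3 but not the lowest Pax9 (40.7 CPM against 38.5 CPM). Of 10 crest mesenchyme markers, 6 were lower and 1 higher in WT PA3. The part of these cells in the differences of Pax1, Pax8 and Pax9 was not tested.

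**Figure D3:**
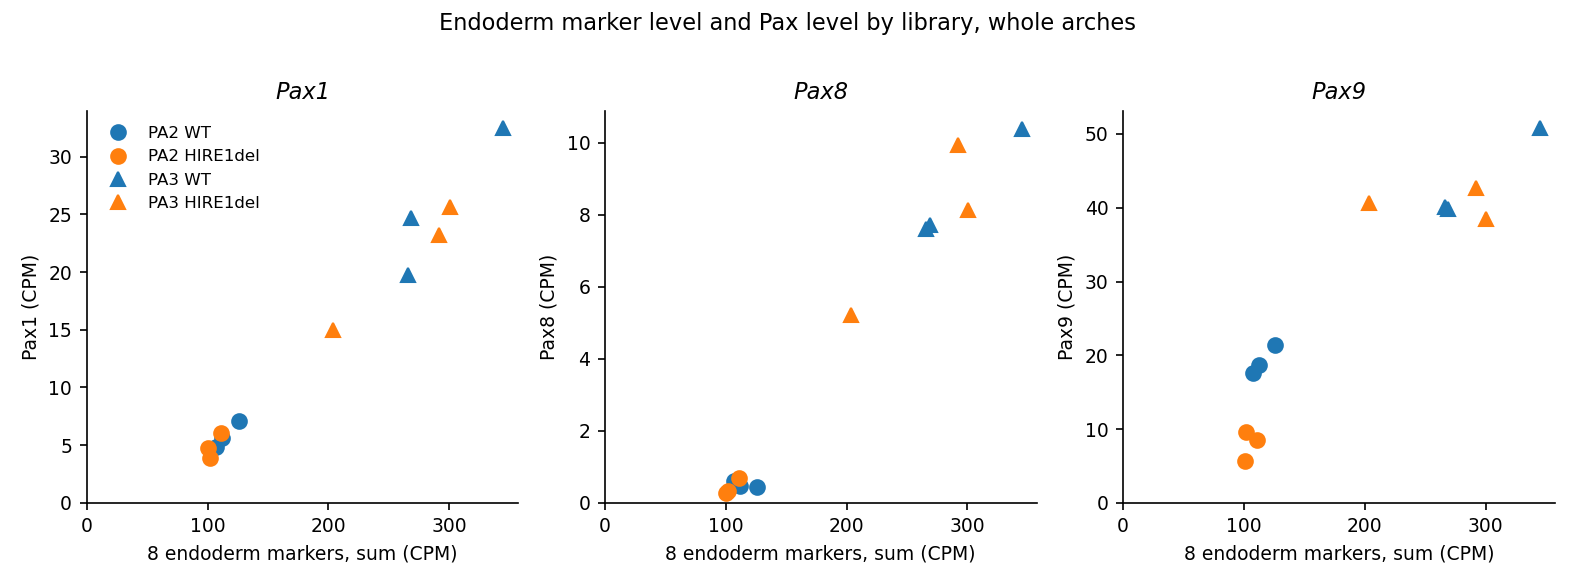
Level of Pax1, Pax8 and Pax9 (CPM, vertical) against the summed level of 8 pharyngeal endoderm markers (CPM, horizontal) in the 12 whole-arch libraries; circles are PA2, triangles PA3, blue WT and orange HIRE1del. The 6 PA2 libraries share sums of 101 to 126 CPM, and within them Pax9 separates HIRE1del (5.69 to 9.53 CPM) from WT (17.6 to 21.3 CPM) whereas Pax1 and Pax8 do not.

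In the companion list, 20 of 41 genes were higher and 6 lower in WT PA3, beside 36.5% of all genes called, with a median log2 fold change of 0.30. The largest were Gcm2, the regulator of the parathyroid gland that arises from a pharyngeal pouch (10.6 ± 2.11 against 0.29 ± 0.107 CPM, log2 fold change 5.18), the receptor Ret (5.73 ± 2.87 against 0.547 ± 0.34 CPM, 3.4), Six2 (1.97) and Tbx1 (1.95), with edgeR adjusted p of 9.87e-07 to 0.00404. The largest falls were those of Myf5, Tle3 (-0.59), Sox9 (-0.32) and Paxbp1 (-0.29), a Pax3 and Pax7 binding protein. In HIRE1del 17 were higher and 10 lower (median 0.43), beside 33.4% of all genes called. The genes most like Pax1 over the 12 libraries were Tnfrsf11b (root mean square difference 0.157), Sycp2l (0.167) and Myo5c (0.21). Those most like Pax8 were Ctxn3 (0.223), Galnt3 (0.269) and Nkx2-6 (0.327), those most like Pax7 were Slitrk5, Ankrd44 and Gas1 (0.171 to 0.195), and those most like Pax3, at a greater distance, Tnc, Pgm5 and Pde3a (0.396 to 0.433).

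Among the 5 members that passed the filter, Pax1, Pax8 and Pax9 were called higher in PA3. The sequence before their RefSeq start sites (GRCm38.p6, with an entry for 5 of the 6 members) is shown for that reason. Pax6, which did not pass the filter, is not shown. Each run is the 250 bases before the start site, 5′ to 3′ on the gene's strand: chr2:147364744-147364993 (plus strand) for Pax1, chr2:24475600-24475849 (minus strand) for Pax8 and chr12:56695221-56695470 (plus strand) for Pax9. The Pax1 and Pax9 runs lie inside the gene spans given below, before start sites downstream of the annotated 5′ ends. Capitals mark matches on either strand to TGACAG (the Meis core), TGATNNAT (Pbx-Hox), the palindromic pair of homeodomain half-sites bound by paired-type factors, CCAAT and TATAAA.
Pax1: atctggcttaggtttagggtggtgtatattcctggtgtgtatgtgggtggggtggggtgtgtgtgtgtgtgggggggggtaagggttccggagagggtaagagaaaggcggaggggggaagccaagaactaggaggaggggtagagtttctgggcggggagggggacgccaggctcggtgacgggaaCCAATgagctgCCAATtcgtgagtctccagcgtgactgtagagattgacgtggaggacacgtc
Pax8: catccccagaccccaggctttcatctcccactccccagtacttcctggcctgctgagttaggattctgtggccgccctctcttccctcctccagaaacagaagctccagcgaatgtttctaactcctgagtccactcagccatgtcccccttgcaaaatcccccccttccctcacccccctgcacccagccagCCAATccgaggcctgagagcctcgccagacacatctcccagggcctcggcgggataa
Pax9: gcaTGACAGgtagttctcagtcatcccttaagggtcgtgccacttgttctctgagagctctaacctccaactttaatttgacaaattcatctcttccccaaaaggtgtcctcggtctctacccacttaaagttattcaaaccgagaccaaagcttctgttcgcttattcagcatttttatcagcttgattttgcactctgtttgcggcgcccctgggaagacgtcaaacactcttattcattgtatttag
Pax1 held 2 CCAAT matches and Pax8 held 1, a motif found in 33.8% of 32851 promoter windows of this length, and Pax9 held none. Pax9 held 1 match to the Meis core, a letter string in 15.9% of windows. TGATNNAT (7.68% of windows), the homeodomain pair (0.463%) and TATAAA (12.4%) were absent from all 3. A match is a string of letters and not a site of binding.

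The members lie at separate loci of GRCm38 (GENCODE M21): Pax1 on chromosome 2 (147361925 to 147393295, plus strand), Pax6 on chromosome 2 (105668900 to 105697364, plus), Pax8 on chromosome 2 (24420560 to 24475599, minus), Pax3 on chromosome 1 (78101267 to 78197134, minus), Pax7 on chromosome 4 (139737062 to 139833528, minus) and Pax9 on chromosome 12 (56691767 to 56712822, plus). No word of 50 bases, the read length, was shared between the transcripts of any member and those of another Pax gene. Antisense exons overlap Pax1 (AI646519, 183 bases), Pax8 (Gm13415, 367 bases, not in the tables) and Pax9 (Slc25a21, 189 of 5056 exonic bases). Because the kit is described as unstranded, reads in these bases cannot be told apart by strand. Slc25a21 was at 2.02 ± 0.126 CPM in WT PA2 and 1.5 ± 0.193 CPM in HIRE1del PA2 (SD, n = 3 each; log2 difference -0.43, edgeR adjusted p = 0.65), and was higher in WT PA3, at 12 ± 2.55 CPM (2.56, adjusted p = 1.12e-06). AI646519 was higher in WT PA3 too (1.80 ± 0.659 against 0.483 ± 0.07 CPM; log2 difference 1.88, adjusted p = 0.00238). Of the nearest measured neighbours, Psd4, 5.61 kb from Pax8, was higher in WT PA3 (4.73 against 2.13 CPM; log2 difference 1.14, adjusted p = 0.00462), whereas Prps1l3, 518 kb from Pax9, was not called between the arches or with the deletion in PA2 (-0.04 and -0.01).

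Per kilobase of exon (RPKM), the order of the members within an arch could be compared. In WT PA2 it was Pax9 (3.80 ± 0.382), Pax1 (1.30 ± 0.258), Pax7 (0.21 ± 0.0513), Pax3 (0.145 ± 0.12), Pax8 (0.0824 ± 0.0168) and Pax6 (0.00401 ± 0.00179 RPKM; SD, n = 3 each). The libraries of Pax7 and Pax3 overlapped, as did those of Pax3 and Pax8, and the other neighbours did not except that replicate 1 of Pax3 was near the Pax6 level. In WT PA3 it was Pax9 (8.62 ± 1.24), Pax1 (5.71 ± 1.43), Pax8 (1.41 ± 0.259), Pax3 (0.322 ± 0.184), Pax6 (0.063 ± 0.0119) and Pax7 (0.051 ± 0.0531 RPKM), and there only Pax6 and Pax7 overlapped. In HIRE1del PA2 Pax9 (1.56 ± 0.393) and Pax1 (1.09 ± 0.246 RPKM) overlapped.

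Within PA2 at E10.5, the whole arch and the sorted crest cells can be set side by side, although they were read with paired-end and single-end sequencing and were not tested against each other. Pax9 stood at 22.1 ± 2.11 CPM in sorted cells and 19.2 ± 1.93 CPM in WT whole PA2 (SD, n = 3 each), close values. Pax1 stood at 0, 0.0343 and 0 CPM in sorted cells, a single count in 3 libraries, beside 4.8 to 7.09 CPM in whole PA2. Pax8 likewise had a single count, beside 0.426 to 0.616 CPM, and Pax7 4 counts in 1 of 3 libraries, beside 0.912 to 1.51 CPM. Pax3 was at 0.131 to 0.446 CPM, beside 0.0387 to 1.35 CPM. Those Pax3 libraries overlapped. Pax6 had 3 counts in sorted and 4 in whole PA2 (0.0327 and 0.0466 CPM), too few to compare. The 8 endoderm markers summed to 4.74 to 5.9 CPM in sorted PA2, with Shh at 0 in all 3 libraries.

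**Figure D4:**
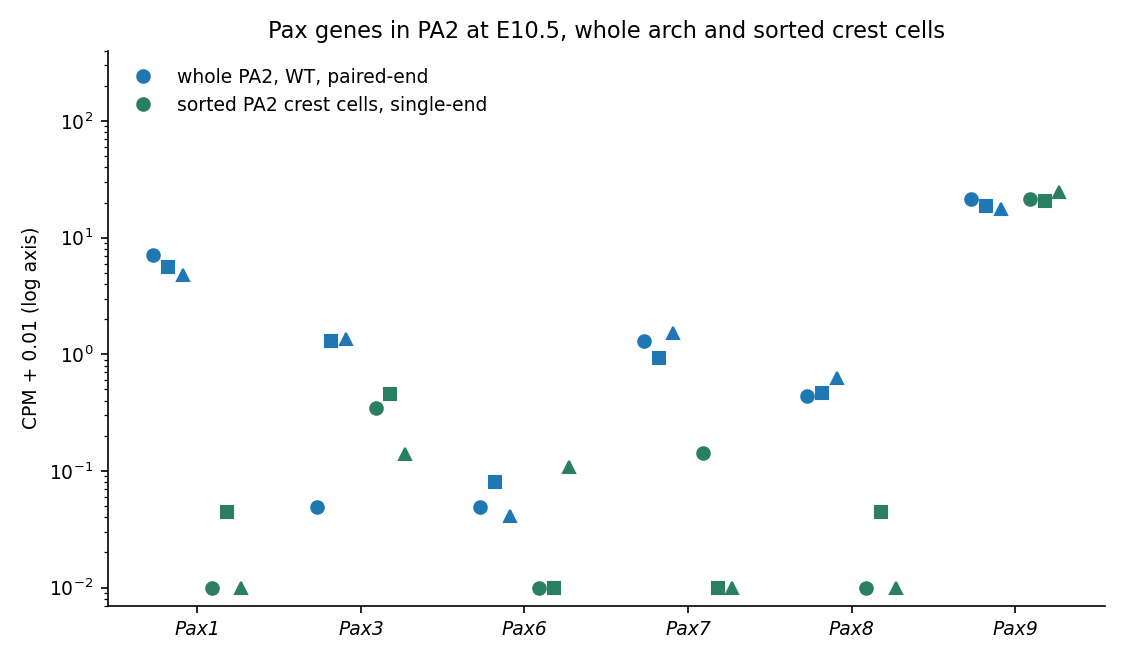
Level of each member in PA2 at E10.5 in the 3 WT whole-arch libraries (blue) and the 3 libraries of sorted crest cells (green), as CPM + 0.01 on a log axis, so that points at 0.01 are libraries with no count. Pax9 overlaps (17.6 to 21.3 and 20.6 to 24.5 CPM), and Pax1, Pax7 and Pax8 are lower in the sorted cells.

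The stage series asks how the Pax genes change in crest-derived cells from the arch to the pinna. Of the 6 members, Pax1, Pax3 and Pax9 passed the filter, and each had its own course: Pax3 rose at each step, Pax9 fell and rose again, and Pax1 was counted mainly at E12.5. At the first step 3 of 3 members were called (68.8% of all genes), at the second 3 of 3 (65.7%) and from E10.5 to E14.5 2 of 3 (82.0%), so that a call in itself is the common case. Pax1 passed the filter only through the E12.5 libraries, where it was high, so its part in these counts is a description. The 3 comparisons share libraries, and stage cannot be told apart from tissue (arch or pinna) at the first step or from the enzyme used (trypsin to E12.5, papain at E14.5) at the second.

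Pax3 was at 0.335, 0.446 and 0.131 CPM in PA2 at E10.5, at 0.966, 1.37 and 2.18 CPM in the E12.5 pinna and at 13.1, 15.1 and 13.7 CPM in the E14.5 pinna. No 2 stages overlapped, and Pax3 passed the filter only through the pinna libraries. The log2 fold change was 2.31 (SE 0.388, edgeR adjusted p = 0.000267) from E10.5 to E12.5, 3.20 (SE 0.272, adjusted p = 1.7e-06) from E12.5 to E14.5 and 5.51 (SE 0.338, adjusted p = 3.14e-08) over both. Markers of melanoblasts, a crest derivative in which Pax3 is known to act on Mitf, were higher at E14.5 than at E12.5 for 8 of 8 genes, among them Dct (143 ± 14.2 against 8.81 ± 2.01 CPM) and Mitf (56.5 ± 4.16 against 10.0 ± 0.603 CPM; SD, n = 3 each). Already from E10.5 to E12.5, 6 of these 8 were called higher and 1 lower (median log2 fold change 3.02). Over all genes 68.8% were called at that step and 65.7% at the next. The sum of the 8 was 67.2 to 84.5 CPM at E10.5, with Kit alone at a mean of 65.3 CPM. It was 55.7 to 76.6 CPM at E12.5 and 400 to 465 CPM at E14.5. Markers of Schwann cells and glia were higher for 6 of 6 tested genes, with sums of 25.5 to 29.9 CPM at E12.5 and 105 to 119 CPM at E14.5. The part of these cells in the rise of Pax3 was not tested. The genes most like Pax3 over the 9 libraries were Sema3d, Dclk3 and Trank1 (root mean square difference 0.235 to 0.24).

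Pax9 was at 21.3, 20.6 and 24.5 CPM in PA2 at E10.5, at 2.75, 1.5 and 2.41 CPM at E12.5 and at 6.96, 11.3 and 7.38 CPM at E14.5. The stages did not overlap. From E10.5 to E12.5 it fell 10.0-fold (log2 fold change -3.32, SE 0.236, edgeR adjusted p = 3.32e-07). From E12.5 to E14.5 it rose 3.86-fold (1.95, SE 0.235, adjusted p = 2.54e-05), and at E14.5 it was below the E10.5 level (-1.37, SE 0.202, adjusted p = 5.79e-05). The 11 epithelial markers summed to 11.9 to 14.0, 12 to 15.3 and 30.0 to 49.8 CPM at the 3 stages. From E12.5 to E14.5, 4 of the 7 tested were higher, among them Cdh1 (14.6 from 2.23 CPM) and Krt14 (5.60 from 0.305 CPM), and 3 were lower, namely Epcam (1.28 from 3.29 CPM), Krt18 (0.705 from 1.87 CPM) and Esrp1 (2.86 from 4.82 CPM). The part of these cells in the later rise was not tested. The genes most like Pax9 here were Tfap2c (0.297), Snx31 (0.37) and Thbd (0.418). Meox1, the gene nearest to Pax9 in whole arches, also fell to E12.5 (0.581 ± 0.136 from 11 ± 1.64 CPM; log2 difference -4.22, edgeR adjusted p = 3.89e-08) and rose to E14.5 (1.94 ± 0.284 CPM; 1.73, adjusted p = 5.71e-05).

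Pax1 had 1 count in the 3 E10.5 libraries, 125 in those of E12.5 (1.45, 1.11 and 1.77 CPM) and 12 in those of E14.5 (0, 0.147 and 0.109 CPM). The E12.5 libraries were above all others. The ratio of pooled CPM from E10.5 to E12.5 was 134 (95% interval 23.6 to 5329, counting error only). From E12.5 to E14.5 the log2 fold change was -4.01 (SE 0.575, edgeR adjusted p = 9.66e-05). E14.5 and E10.5 overlapped (adjusted p = 0.0796), although DESeq2 called the difference (adjusted p = 0.0477), as did edgeR without replicate 1 of E14.5 (0.00883). The 8 muscle progenitor markers also summed highest at E12.5 (0.569 to 1.10, 2.19 to 3.72 and 1.37 to 1.93 CPM at the 3 stages). However, only 1 of the 8 passed the filter. The number of these genes with a mean of 1 CPM or more was 0 at E10.5, 1 at E12.5 and 0 at E14.5. The part of these cells in the Pax1 level was not tested. The 8 endoderm markers summed to 4.74 to 5.9, 3.9 to 4.01 and 3.39 to 5.28 CPM, of which Epcam alone made 3.29 CPM at E12.5. The genes most like Pax1 were Stard8, S1pr3 and Chst15 (root mean square difference 0.198 to 0.231).

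Pax6, Pax7 and Pax8 stayed near or under the floor in all 9 stage libraries. Pax8 had 2 counts in all, with 0 at E14.5, which allows up to 0.0207 CPM over that group. Pax6 had 4 counts and Pax7 27, of which the E14.5 library with 10 held the most. In fits without the filter none of these 3 was called between any stages (edgeR adjusted p of 0.248 to 1).

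**Figure D5:**
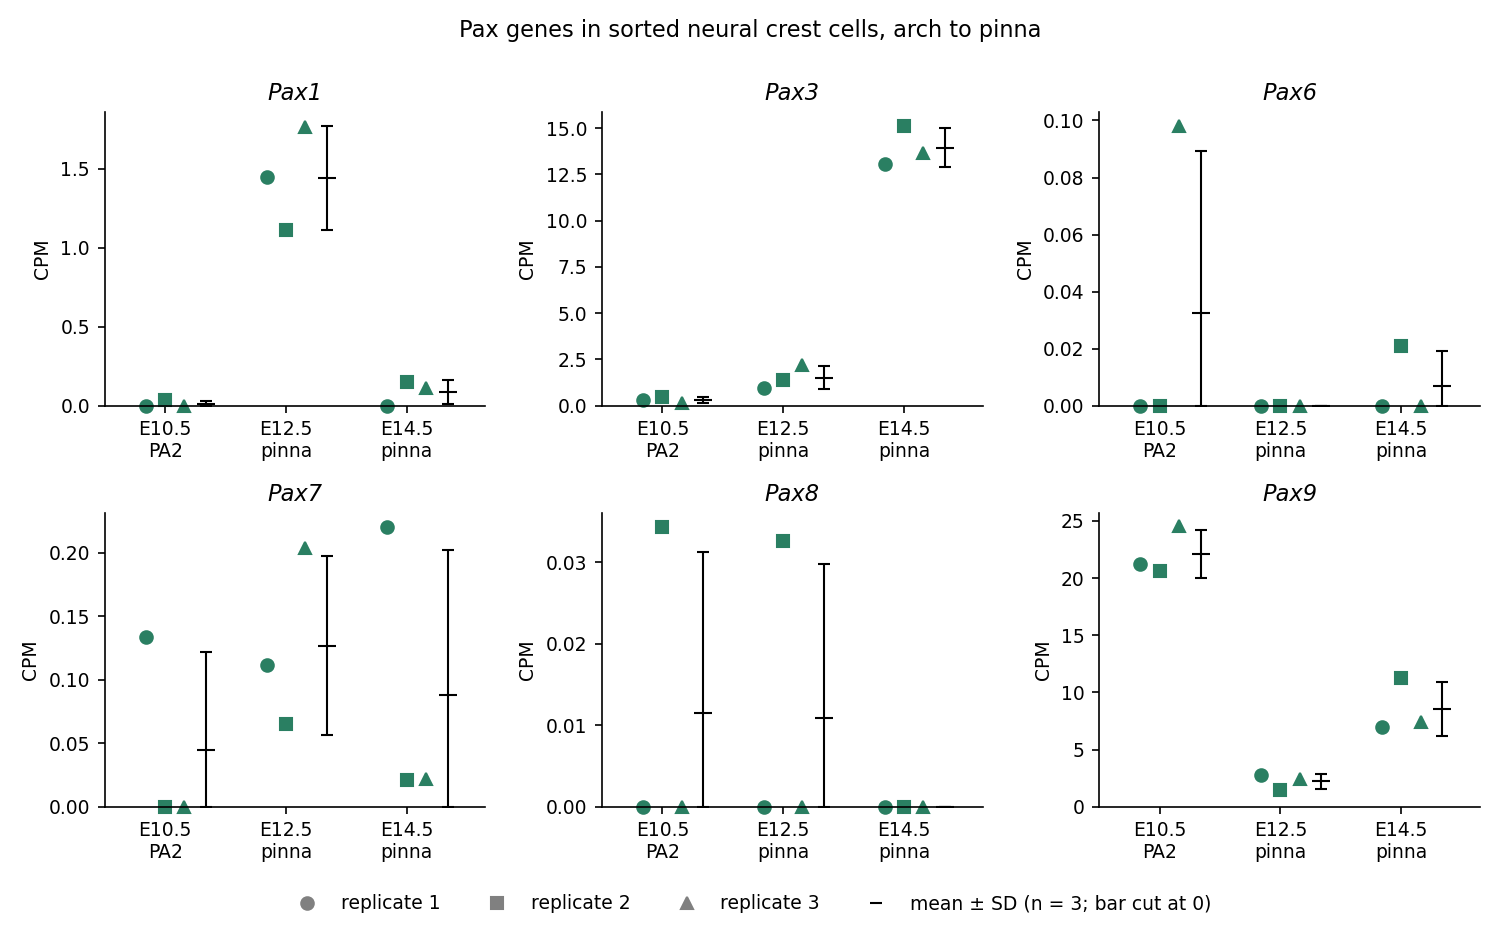
Level of each Pax gene (CPM, linear axes that differ between panels) in sorted neural crest cells of PA2 at E10.5 and of the pinna at E12.5 and E14.5; symbols are replicates 1 to 3, and bars the mean ± SD (n = 3). Pax3 rises to 13.1 to 15.1 CPM at E14.5, Pax9 is lowest at E12.5 (1.5 to 2.75 CPM), and Pax1 is seen mainly at E12.5 (1.11 to 1.77 CPM).

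In the companion list, 29 of 45 genes could be tested in the stage series. Most were called, as were 68.8% and 65.7% of all genes at the 2 steps. Of the list, 12 were higher and 13 lower from E10.5 to E12.5 (median log2 fold change -0.07, beside 0.01 over all genes), and 6 higher and 20 lower from E12.5 to E14.5 (median -0.82, beside -0.01). Among those lower at E12.5 were Foxc1 (5.32 ± 1.18 from 131 ± 1.89 CPM) and Foxc2 (2.74 ± 0.32 from 43.6 ± 5.13 CPM), forkhead genes of arch and somite mesenchyme, and the sclerotome gene Nkx3-2 (0.248 ± 0.121 from 5.05 ± 0.247 CPM), a known target of Pax1 and Pax9 (log2 fold changes of -4.63 to -3.99, edgeR adjusted p of 5.95e-10 to 3.34e-06). Osr2 rose to 61.5 ± 2.39 from 4.58 ± 1.91 CPM (3.75, adjusted p = 5.46e-08), as did Dct (3.21), Meox2 (2.73) and Osr1 (2.06). From E12.5 to E14.5 the rises were led by Dct (4.02), Mitf (2.49), Sox10 (2.16) and Meox1 (1.73).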

How the data were processed

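Counts of alignments per gene were deposited by the authors without normalization in 2 tables, made with QuasR from spliced alignments to GRCm38. Alignments antisense to the exons of UCSC known genes were counted, although the methods describe the kit as unstranded. The genotype series was read at 50 bases from both ends and the stage series from a single end, and the tables were never tested against each other. The exonic width deposited with each gene was used for RPKM; 0 columns of values were left unused.

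In R 4.3.3, a filter of 1 CPM in 2 or more libraries left 14383 and 13438 genes. After TMM scaling, all groups of a table were fitted together with edgeR 4.0.16 (two-sided quasi-likelihood test, Benjamini-Hochberg adjustment over all genes, called at an adjusted p under 0.05). Of the 6 members, 5 passed in the genotype series and 3 in the stage series. DESeq2 1.42.0 and limma 3.58.1 (voom), other scalings and filters, a replicate block and leaving out each library were alternatives. The fits were tested on simulated data, where a limit on the share of false calls was set for edgeR and limma-voom but not for DESeq2. Figures were drawn with matplotlib 3.10.9.

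Members and gene lists were chosen with earlier results of these data known. Named genes are the members, their overlapping and nearest genes, Hoxa2, up to 4 genes per direction of the companion list, the 3 genes most like each member, and markers of cell types. Some other genes of these lists are not reported here. Deviations from the group mean of PA2 and PA3 libraries of the same genotype and number correlated at r of 0.239 to 0.549, which is why a block for the pair was also fitted; the pairing comes from the numbers in the titles. Replicates were checked for copies (chi-square per degree of freedom 7.15 to 50.7). Intervals and floors cover counting error only.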

Additional observations from a re-analysis of the deposited data

Results flagged for a closer look

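Whether the effect of the deletion on Pax9 was called as different between PA2 and PA3 depended on the fit. In the main fit the interaction was -1.18 on the log2 scale with an edgeR adjusted p of 0.143, and was not called. With a term for each pair of PA2 and PA3 libraries it was -1.19 (edgeR adjusted p = 0.0156). In PA2 all 3 HIRE1del libraries lay below all 3 WT libraries, and in PA3 the groups overlapped. Of 21 alternatives, 17 left this interaction uncalled and 4 called it. The adjusted p ranged from 3.6e-05 to 0.495 over these fits by edgeR, DESeq2 and limma-voom.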

How the results depend on the processing

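Of 519 fold changes of single genes recomputed under an alternative, 483 kept their direction and side of the threshold, 0 lost a call, 7 gained one and 29 turned direction, all 29 for genes that were not called. The calls of Pax9 in PA2, of Pax1, Pax7, Pax8 and Pax9 between arches, and of Pax1, Pax3 and Pax9 at each of the 2 steps between stages kept their call wherever the gene could be fitted. Of these, Pax7 and Pax8 between arches and Pax1 between stages had passed the filter only through the group in which they were high. Pax3 in the stage series had passed only through the pinna libraries, and not through those of E10.5, where it was low. Requiring 1 CPM in every library left out the lower genes by construction, and the members called fell from 4 to 2 between arches in WT, from 4 to 2 in HIRE1del, from 3 to 1 at each step between stages and from 2 to 1 from E10.5 to E14.5. Members called for the interaction went from 0 to 1 without a filter, by DESeq2 and with the replicate block, and from 0 to 1 among fits without 1 library (without HIRE1del PA2 replicate 3, -1.33 for Pax9, edgeR adjusted p = 0.0472).

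The fold changes that turned were those of Pax7 in PA3 (0.0118 by DESeq2, 0.56 by limma-voom, 0.0527 with the replicate block), Pax3 by limma-voom (0.18 in PA2, -0.0258 in PA3, 0.21 for the interaction), the Pax7 interaction by limma-voom (-0.23) and the Pax1 interaction without replicate 1 of both WT arches (-0.0234), an alternative chosen after seeing the data. Without 1 library each, the values ranged from -0.51 to 0.60 for Pax3, -0.49 to 1.23 for Pax7, -0.36 to 0.0783 for Pax8 and -0.16 to 0.0252 for Pax9 in PA3, and for the interactions from -0.18 to 0.19 for Pax1, -1.29 to 0.0218 for Pax3, -0.91 to 0.80 for Pax7 and -0.58 to 0.14 for Pax8. The cause was not tested.

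Replicate numbers of WT and HIRE1del libraries, and of stages, share only a number (r of -0.195 to 0.325 and -0.385 to 0.308), and a replicate block there moved no count of members called by over 1.5 times. DESeq2 gave no adjusted p for Pax3 and Pax7 in PA2. A fit of the compared libraries alone does not apply to the interaction. Over all genes, calls with the deletion went from 63 to 164 by DESeq2 and 105 with the block in PA2, from 31 to 93 and 54 in PA3 and from 7 to 27 and 26 for the interaction, and without replicate 1 of both WT arches the calls between WT arches went from 5252 to 3449. Low counts limit Pax3, Pax6 and Pax7, as well as Pax8 in PA2 and in sorted cells, and Pax1 in sorted cells.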

Other observations

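Of the Pax genes outside the 6 described, Pax5, a relative of Pax8 known from B cells and the midbrain, was counted in sorted cells mainly at E12.5 (56, 57 and 93 counts, or 2.08, 1.86 and 3.16 CPM), beside 5 counts in the E10.5 group and 0 in that of E14.5, and in whole arches it had 0 to 8 counts per library. Pax2, known from kidney and otic vesicle, was at 0.502, 0.618 and 1.08 CPM in sorted PA2 at E10.5, at 0.0653 to 0.0743 CPM at E12.5 and had no count at E14.5. In whole PA2 it had 18 counts in WT and 2 in HIRE1del over 3 libraries each. Pax4 had 1 count in 21 libraries.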
